A study of Mus musculus with 12 samples.

Results

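The vacuolar proton pump, membrane proteins and hydrolases of the lysosome were followed in dendritic cells sorted from mouse kidneys. The set holds 33 genes taken by name from the 26121 genes measured: 17 for subunits of the pump and its accessory proteins, 4 for membrane proteins, 5 for glycosidases, 3 for sphingolipid breakdown, 2 for antigen processing, and the regulator Tfeb with the channel gene Mcoln1. Cathepsins were not part of the set. All 33 were kept by the rule that a gene may not lie below 1 CPM (read counts scaled to the size of the library) in more than 9 of the 12 libraries, and all 33 entered the tests. The cells came from 6 wild-type male mice aged 8-12 weeks. Healthy kidneys of 3 mice and kidneys of 3 mice taken 7 days after nephrotoxic nephritis antiserum, which injures glomeruli, were digested with collagenase at 37 °C, and cells bound by CD45 beads were sorted by flow cytometry. CD103+ and CD11b+ dendritic cells were taken from every mouse, which gave 4 groups of 3 libraries: CD103+ healthy, CD11b+ healthy, CD103+ inflamed and CD11b+ inflamed. Inflamed means nephrotoxic nephritis throughout.

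The vacuolar ATPase (V-ATPase) acidifies lysosomes, and its cytosolic V1 sector splits ATP while its membrane V0 sector carries protons. Lysosomal hydrolases need that acid to digest proteins, glycans and lipids. In dendritic cells the speed of this digestion affects which peptides are left for presentation, and conventional dendritic cells of the CD103+ type are known for milder phagosomal acidity and for presenting engulfed antigen to CD8 T cells. Kidney tubule cells are rich in the same proteins, and acid-secreting intercalated cells of the collecting duct carry V-ATPase forms of their own.

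Libraries held 11486182 to 26556814 reads, and 3 reads corresponded to 0.112 to 0.254 CPM. The listed genes of each subset were higher in the sorts of that label, though the lists include Itgae and Itgam, the genes of CD103 and CD11b. The 8 listed genes of CD103+ type (cDC1) cells summed to 904 to 2076 CPM in healthy and 3882 to 4834 CPM in inflamed CD103+ libraries. In CD11b+ libraries they summed to 272 to 295 and 182 to 195 CPM. The 6 listed cDC2 genes ran from 2733 to 3894 CPM in CD11b+ and from 32.7 to 56.0 CPM in CD103+ libraries. Tubule RNA was unevenly spread. In healthy CD103+ cells 15 proximal tubule genes took 3.73% to 5.81% of the scaled library size. In healthy CD11b+ cells they took 0.891% to 2.20%, and in the 6 inflamed libraries 0.381% to 0.597%. Averaged on the log2 scale, 34 leukocyte genes stood at 5.80 to 6.75 in healthy CD103+ cells and at 7.46 to 7.98 in the other 9 libraries. A list of 10 macrophage genes summed to 25.8 to 43.2 CPM in CD103+ cells, while healthy CD11b+ cells held 501 to 582 CPM and inflamed CD11b+ cells 1210 to 1464 CPM. The listed monocyte genes summed to 2403 to 2856 CPM in inflamed CD11b+ and 1589 to 1973 CPM in inflamed CD103+ libraries. Neutrophil genes summed to 116 to 221 and 0.936 to 1.62 CPM in the same libraries. T cell genes summed to 536 to 732 CPM in healthy CD11b+ and 116 to 186 CPM in healthy CD103+ libraries. What part such cells had in the results was not tested. Because tubule and leukocyte RNA were uneven, results with the healthy CD103+ libraries are also given after each library was rescaled to the leukocyte genes. This is here called leukocyte scaling. It takes the mean of the 34 genes as equal in all groups, which was not tested. Single genes of the list still differed after it: 12 were called higher and 9 lower between the healthy subsets, and 5 and 5 between the inflamed subsets. In bulk samples, fewer cells of a type and less RNA per cell cannot be told apart.

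**Figure D1:**
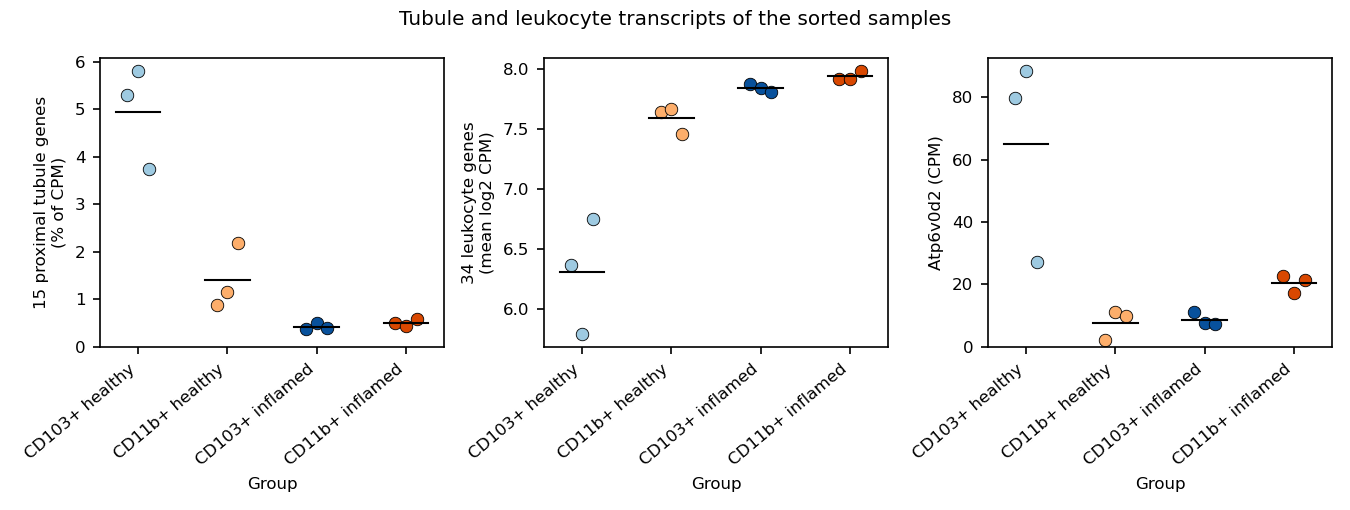
Percent of the scaled library size on 15 proximal tubule genes (left), mean log2 CPM of 34 leukocyte genes (middle) and CPM of the V-ATPase gene Atp6v0d2 (right) in each of the 12 libraries. Points are libraries and bars are group means (n = 3). The healthy CD103+ libraries stand at 3.73% to 5.81% for the tubule genes and hold the 3 highest values of Atp6v0d2.

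Most of the 33 genes were well expressed, and their level spanned a wide range per kilobase of exon. In inflamed CD11b+ cells the level ran from 0.628 ± 0.0717 CPM per kb for Mcoln1 and 0.632 ± 0.134 CPM per kb for Tfeb to 1001 ± 213 CPM per kb for Psap (SD, n = 3). The V1 sector genes lay between 14.9 CPM per kb for Atp6v1h and 103 CPM per kb for Atp6v1g1 in that group, while the 2 a subunit genes of the V0 sector stood at 9.44 (Atp6v0a1) and 3.21 CPM per kb (Atp6v0a2). The length used is the union of annotated exons, 9746 bases for Atp6v1h and 7555 for Mcoln1. Their longest coding transcripts hold 2049 and 2065 bases, so the order of genes per kb depends on the length chosen. The highest group mean belonged to healthy CD103+ cells for 20 genes, to inflamed CD11b+ cells for 7, to inflamed CD103+ cells for 5 and to healthy CD11b+ cells for 1, Tfeb. The lowest belonged to inflamed CD103+ cells for 15 genes. These counts are under the deposited scaling and were not made over all genes, so how unusual they are cannot be judged. The healthy CD103+ libraries also held the most tubule RNA. The highest group mean exceeded the lowest by 11.3-fold for Psap, 8.60-fold for Neu1, 8.34-fold for Atp6v0d2 and 7.49-fold for Cd63. At the other end stood Atp6v0e (1.22-fold) and Atp6v1g1 (1.35-fold).

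**Figure D2:**
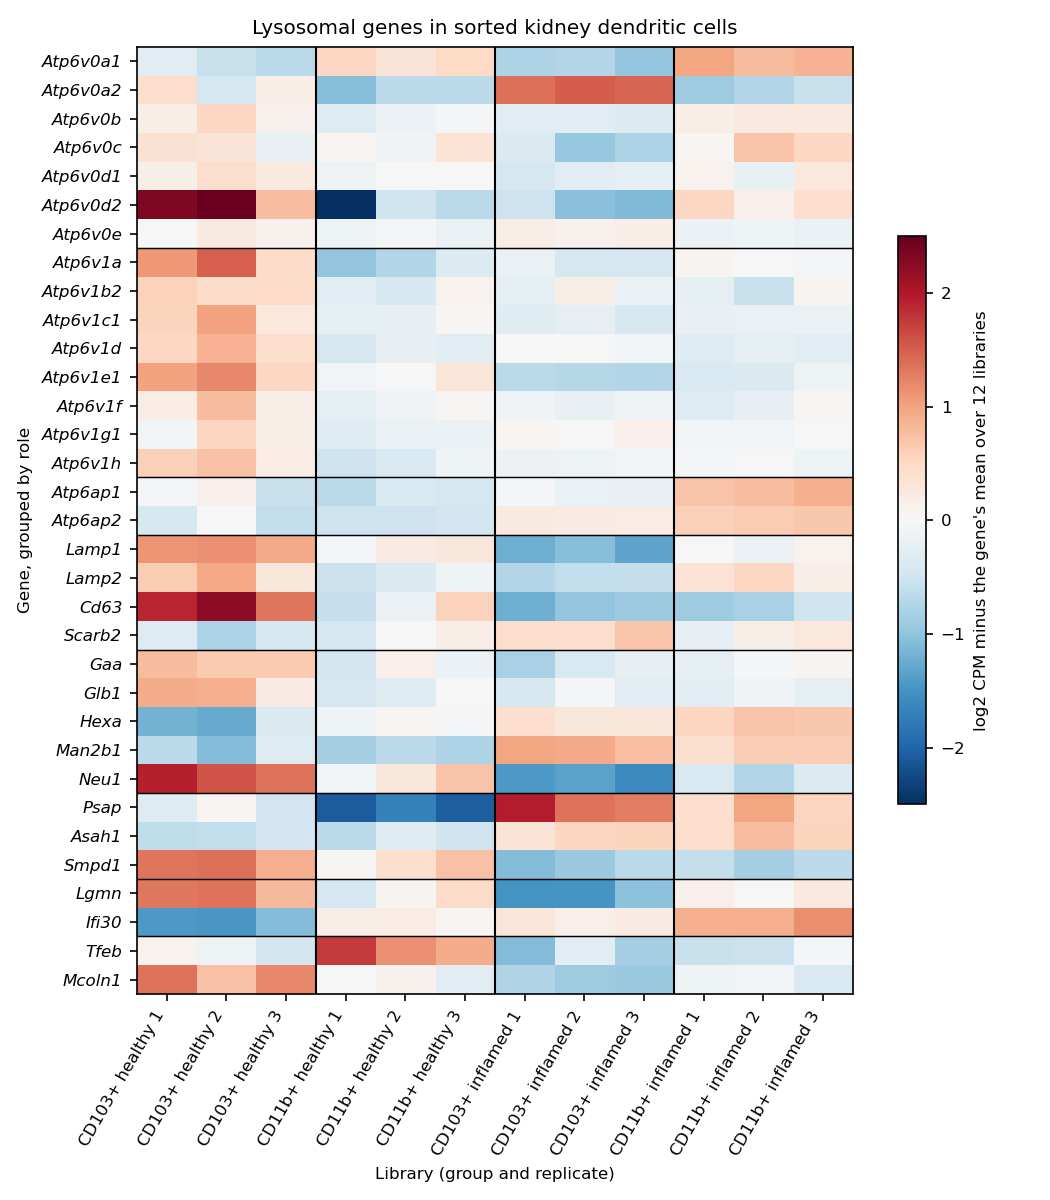
Level of the 33 genes in the 12 libraries, as log2 CPM minus the mean of the gene over all libraries (red, above the mean; blue, below), with rows ordered by role from the V0 sector at the top to Tfeb and Mcoln1 at the bottom. Under the deposited scaling healthy CD103+ libraries are the highest group for 20 genes, a count that was not made over all genes. Atp6v0a1 and Atp6v0a2 lie on opposite sides of their means in every inflamed library.

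In inflamed kidneys CD11b+ cells held more RNA than CD103+ cells for 10 of the 33 genes and less for 2 (limma, adjusted p under 0.05). The higher genes were Atp6v0a1, Atp6v0b and Atp6v0c of the membrane sector, both accessory subunits, Lamp1 and Lamp2, Neu1, Lgmn and Ifi30. The lower genes were Atp6v0a2 and Psap. Of all 14180 genes tested, 9.66% were called higher and 8.21% lower. The median difference over the 33 genes was 0.35 on the log2 scale, beside 0.01 over all genes. None of the 8 V1 sector genes was called in either direction, and their differences lay between -0.25 for Atp6v1d and 0.42 for Atp6v1e1.

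The V0 sector held the largest difference in each direction, in the genes of 2 alternative a subunits, which help decide to which membrane the pump is sent. Atp6v0a1 (ENSMUSG00000019302, chr11:101009452-101063719, plus strand) stood at 19.5, 20.3 and 17.2 CPM in the inflamed CD103+ libraries and at 66.3, 57.7 and 61.7 CPM in the inflamed CD11b+ libraries. Atp6v0a2 (ENSMUSG00000038023, chr5:124628576-124724455, plus strand) stood at 92.8, 101 and 97.6 CPM and at 19.1, 21.5 and 24.2 CPM in the same libraries. The subsets did not overlap for either gene, and the genes went in opposite directions: Atp6v0a1 was 3.26-fold higher in CD11b+ cells, and Atp6v0a2 was 4.52-fold higher in CD103+ cells. On the log2 scale the difference of CD11b+ from CD103+ cells was 1.70 ± 0.15 (SE) for Atp6v0a1 (limma, adjusted p = 1.46e-06) and -2.18 ± 0.20 for Atp6v0a2 (adjusted p = 3.32e-06). Both calls held under each of the 22 alternative settings. Of the 50-base words of the longest Atp6v0a2 coding transcript 10.8% also occur in 4930404A12Rik, and how the authors counted shared reads was not stated.

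The ratio of the 2 genes within a library does not depend on how libraries are scaled. RNA of other cells in a sort can still move it. The healthy CD103+ libraries held the most tubule RNA, and its part in the ratio was not tested. The log2 ratio of Atp6v0a1 to Atp6v0a2 was -0.93 to -0.20 in healthy CD103+ libraries and -2.51 to -2.25 in inflamed ones. It was 0.891 to 1.496 in healthy and 1.35 to 1.79 in inflamed CD11b+ libraries. Thus Atp6v0a2 exceeded Atp6v0a1 in all 6 CD103+ libraries and fell short of it in all 6 CD11b+ libraries. The ratio was lower in inflamed than in healthy CD103+ libraries by 1.72 on the log2 scale, as the mean moved from -0.64 to -2.36, without overlap (two-sided exact permutation p = 0.1, the smallest that 3 against 3 allows). In CD11b+ cells the means were 1.15 and 1.52 and the libraries overlapped (exact permutation p = 0.3). A further a subunit gene, Tcirg1, which serves lysosomes and the osteoclast border, stood at 85.1 ± 13.4 CPM in inflamed CD103+ and 106 ± 19.6 CPM in inflamed CD11b+ cells. Its log2 ratio to Atp6v0a2 was -0.41 to -0.10 in inflamed CD103+ and 2.19 to 2.39 in inflamed CD11b+ libraries.

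**Figure D3:**
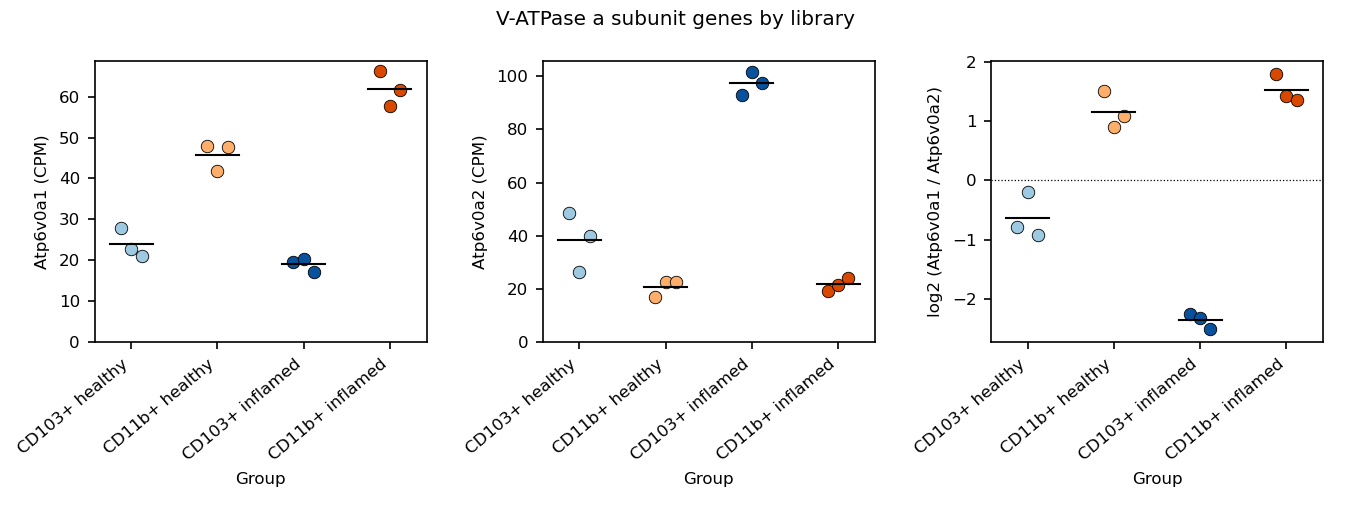
CPM of Atp6v0a1 (left) and Atp6v0a2 (middle) and the log2 ratio of the former to the latter (right) in each of the 12 libraries. Points are libraries and bars are group means (n = 3); the ratio is below 0 in all 6 CD103+ libraries and above 0 in all 6 CD11b+ libraries.

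Among the remaining V0 genes, Atp6v0c encodes the proteolipid that forms the proton-carrying ring. It was low, at 7.52, 5.05 and 5.59 CPM in inflamed CD103+ and 10.0, 15.9 and 13.9 CPM in inflamed CD11b+ libraries, and was 2.18-fold higher in the latter (1.13 ± 0.25, adjusted p = 0.00530). The value is uncertain, because 32.5% of the 50-base words of its transcript also occur in its pseudogenes Atp6v0c-ps1 and Atp6v0c-ps2. Atp6v0b, the other proteolipid, was 1.41-fold higher (247 ± 9.79 against 175 ± 5.23 CPM, SD, n = 3), a call that was lost when any 1 of 4 libraries was left out. The accessory subunit Atp6ap1, which takes part in assembling the pump, stood at 633, 651 and 707 CPM in inflamed CD11b+ and 369, 341 and 339 CPM in inflamed CD103+ libraries. It was 1.90-fold higher in the former without overlap (0.93 ± 0.16, adjusted p = 0.000966). Atp6ap2, the prorenin receptor, was 1.35-fold higher (258 ± 7.16 against 191 ± 3.60 CPM), but its adjusted p of 0.0432 passed the threshold in only 2 of the 12 fits that each left out 1 library. Under leukocyte scaling the calls of Atp6v0b, Atp6v0c, Atp6ap1 and Atp6ap2 were lost, with differences of 0.40, 1.03, 0.83 and 0.34 and adjusted p-values of 0.444, 0.0780, 0.0861 and 0.569. That scaling moved the median of the 33 genes between the inflamed subsets only from 0.35 to 0.26. The adjusted p-values also rest on an estimate of spread shared with the healthy libraries, which the scaling changes too. Whether a call lost here and below reflects the difference or the shared spread was not tested.

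Lamp1 and Lamp2 make up much of the glycoprotein lining of the lysosomal membrane, and both were higher in inflamed CD11b+ cells. Lamp1 (chr8:13159161-13175338, plus strand) stood at 85.3, 76.6 and 89.5 CPM in CD11b+ and 36.1, 40.3 and 33.7 CPM in CD103+ libraries, and Lamp2 at 638, 704 and 552 and 297, 325 and 328 CPM. Neither gene overlapped between the subsets. The difference was 1.19 ± 0.13 for Lamp1 (adjusted p = 1.51e-05) and 0.99 ± 0.17 for Lamp2 (adjusted p = 0.000917), and under leukocyte scaling that of Lamp1 stayed past the threshold (adjusted p = 0.00790) and that of Lamp2 did not (0.0771). The tetraspanin gene Cd63 (72.9 ± 10.8 against 58.8 ± 6.54 CPM) and Scarb2, whose product carries glucocerebrosidase to lysosomes (14.2 ± 2.25 against 19.3 ± 2.005 CPM), were not called.

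The antigen-processing genes were higher in inflamed CD11b+ cells as well. Lgmn (chr12:102394084-102439813, minus strand) encodes legumain, a protease that cuts after asparagine. It stood at 269, 247 and 292 CPM in CD11b+ and 87.8, 88.2 and 121 CPM in CD103+ libraries, which did not overlap, and was 2.75-fold higher in the former (1.46 ± 0.22, adjusted p = 0.000265). Ifi30 encodes the thiol reductase GILT, which opens disulfide bonds of antigens. It stood at 199, 202 and 240.3 CPM in CD11b+ and 133, 118 and 124 CPM in CD103+ libraries, again without overlap (0.77 ± 0.13, adjusted p = 0.000772). Both kept their call under leukocyte scaling.

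Among the hydrolases Neu1, the sialidase gene, was 1.96-fold higher in inflamed CD11b+ cells (35.5, 27.9 and 36.5 CPM in CD11b+ and 17.0, 18.3 and 15.3 CPM in CD103+ libraries), without overlap. The difference was 0.97 ± 0.20 (adjusted p = 0.00356, and 0.0764 under leukocyte scaling). Psap (chr10:60277627-60302597, plus strand) encodes prosaposin, which is cut into saposins that lift sphingolipids out of membranes for their hydrolases. It went the other way, at 6767, 4438 and 4205 CPM in CD103+ and 2317, 3414 and 2513 CPM in CD11b+ libraries. The groups did not overlap, and CD103+ cells were 1.85-fold higher (-0.89 ± 0.21, adjusted p = 0.00915). Without inflamed CD103+ replicate 1, the highest library, the difference was -0.67 with an adjusted p of 0.0544. The other 6 hydrolase genes (Gaa, Glb1, Hexa, Man2b1, Asah1 and Smpd1) were not called, with differences from -0.35 to 0.39.

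The 10 macrophage genes, with 9 of 10 called higher in inflamed CD11b+ cells and a median difference of 5.52, moved with these results, and their part in them was not tested. The intercalated cell genes summed to 40.4 to 69.7 CPM in inflamed CD103+ and 112 to 140 CPM in inflamed CD11b+ libraries, and with the proximal tubule level as a covariate 9 of the 33 genes were called higher and 2 lower, beside 9.56% and 7.66% of all genes. Under leukocyte scaling Atp6v1h and Glb1, neither of them called, changed sign, and 4 of the 10 higher calls and both lower calls were kept, beside 6.37% of all genes called higher and 6.53% lower.

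**Figure D4:**
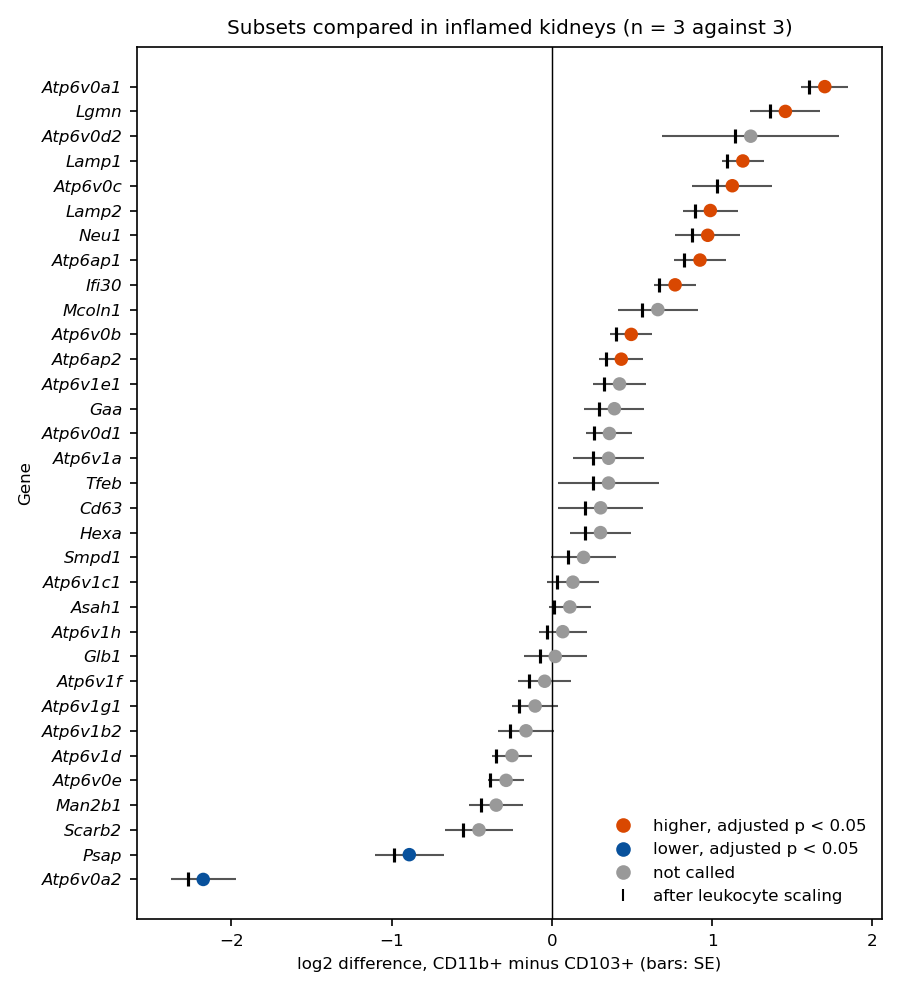
Difference of each of the 33 genes between inflamed CD11b+ and CD103+ cells (log2, x axis; bars, SE; n = 3 against 3), sorted by size. Filled colours mark adjusted p under 0.05 (orange, 10 genes higher in CD11b+; blue, 2 genes lower; grey, not called), and black ticks give the difference after leukocyte scaling.

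In CD11b+ cells nephritis went with higher RNA of 12 of the 33 genes and lower RNA of 3. Psap, Man2b1, Asah1, Hexa and Ifi30, both accessory subunits, Lamp2, Atp6v1a, Atp6v0a1, Atp6v0b and Atp6v0d2 rose. Tfeb, Smpd1 and Neu1 fell. Over all tested genes 20.1% were called higher and 15.8% lower, and the median difference was 0.09 for the 33 genes and 0.08 for all. Without inflamed CD11b+ replicate 2 the count of rises was 7, and without healthy CD103+ replicate 3, which enters this comparison only through the shared estimate of spread, the count of falls was 5. Leukocyte scaling moved the median of all genes from 0.08 to -0.27. Under it the rises of Psap, Man2b1, Asah1 and Atp6ap1 and all 3 falls were still called, with 5.91% of all genes called higher and 19.1% lower, and 10 genes that were not called turned to values below 0, Gaa, Glb1 and Lgmn among them. Of the macrophage genes 8 of 10 were called higher in the same comparison, with a median of 1.97, and of the proximal tubule genes 12 of 15 were called lower; the part of either in these results was not tested. With the proximal tubule level as a covariate 8 of the 33 genes were called higher and 0 lower, beside 7.07% and 3.89% of all genes, and the rises of Hexa, Ifi30, Atp6v0a1 and Atp6v0b were no longer called.

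Of the glycosidase and sphingolipid breakdown genes of the set, Psap rose most. It went from 411, 535 and 412 CPM in healthy to 2317, 3414 and 2513 CPM in inflamed CD11b+ libraries. Every inflamed library lay above every healthy one, and the rise was 6.03-fold (2.59 ± 0.21, adjusted p = 3.92e-06). Asah1, the gene of acid ceramidase, which acts with a saposin, rose from 185 ± 22.1 to 389 ± 43.9 CPM (1.07 ± 0.13, adjusted p = 6.79e-05). Smpd1, the gene of acid sphingomyelinase, fell from 19.9, 25.8 and 32.5 CPM to 12.9, 11.03 and 12.4 CPM. The groups were apart, and Smpd1 was 2.11-fold lower in nephritis (-1.08 ± 0.20, adjusted p = 0.00126). Of the 3 genes of sphingolipid breakdown 2 thus rose and 1 fell, and all 3 kept their call under leukocyte scaling. Psap and Asah1 also kept it with the tubule level as a covariate, and Smpd1, at -0.49, did not (adjusted p = 0.339).

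Man2b1, the gene of the lysosomal alpha-mannosidase that trims glycans, rose in CD11b+ cells from 235, 260.5 and 242 CPM to 549, 637 and 639 CPM, without overlap (1.30 ± 0.17, adjusted p = 8.82e-05). Hexa, which encodes a subunit of beta-hexosaminidase, rose from 135 ± 7.67 to 215 ± 13.4 CPM (0.67 ± 0.19, adjusted p = 0.0136), and Neu1 fell from 58.6 ± 16.1 to 33.3 ± 4.69 CPM (-0.79 ± 0.20, adjusted p = 0.00842). Gaa and Glb1, the genes of acid alpha-glucosidase and beta-galactosidase, were not called, at 0.08 and 0.04. With the tubule level as a covariate Neu1 stood at 0.05 and was no longer called, while Man2b1 stayed past the threshold. Ifi30 rose from 119, 123 and 112 to 199, 202 and 240.3 CPM (0.85 ± 0.13, adjusted p = 0.000307), and Lgmn was not called (0.09).

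Within the pump both accessory subunits rose in CD11b+ cells. Atp6ap1 rose from 239.7, 294 and 282 CPM to 633, 651 and 707 CPM, a 2.45-fold change without overlap (adjusted p = 7.54e-05). Atp6ap2 rose from 116, 116 and 119.5 CPM to 252, 258 and 266 CPM, a 2.21-fold change, also without overlap (adjusted p = 5.88e-05, and 0.0542 under leukocyte scaling). Among the V1 genes Atp6v1a, which encodes the ATP-splitting A subunit, was called (0.70 ± 0.22, adjusted p = 0.0244), and the other 7 were not. The smaller rises of Atp6v0a1 (0.43 ± 0.15) and Atp6v0b (0.37 ± 0.13) lost their call in 5 and 8 of the 12 fits that each left out 1 library.

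Atp6v0d2 encodes an alternative d subunit that is abundant in osteoclasts and in kidney. It stood at 2.28, 11.2 and 9.91 CPM in healthy and 22.9, 17.3 and 21.3 CPM in inflamed CD11b+ libraries (1.67 ± 0.55, adjusted p = 0.0325). The groups did not overlap, but the lowest healthy library carried much of the difference: without healthy CD11b+ replicate 1 it was 0.94 and not called. The 9 intercalated cell genes summed to 25.4 to 130 CPM in healthy and 112 to 140 CPM in inflamed CD11b+ libraries, and they include 3 V-ATPase genes of the kidney. Their part in the rise of Atp6v0d2 was not tested.

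Tfeb (chr17:47737030-47792419, plus strand) encodes a transcription factor that drives lysosomal genes, and in mouse dendritic cells it is known to favour presentation on MHC class II. It was low throughout. It stood at 15.5, 10.1 and 8.73 CPM in healthy CD11b+ and 3.14, 3.15 and 4.46 CPM in inflamed CD11b+ libraries, without overlap, and was 3.13-fold lower in the latter (-1.65 ± 0.32, adjusted p = 0.00138). The difference was -1.63 and was not called with the tubule level as a covariate (adjusted p = 0.0890). In CD103+ cells it was 4.87, 4.18 and 3.33 CPM in healthy and 2.17, 3.75 and 2.58 CPM in inflamed libraries, which overlapped, and was not called (adjusted p = 0.135). The difference between these responses did not pass the threshold (-1.08 ± 0.45, adjusted p = 0.0731). Its relative Mitf rose in inflamed CD11b+ cells, from 9.07 ± 2.59 to 20.1 ± 2.37 CPM (1.18 ± 0.39, adjusted p = 0.0303), a call lost under leukocyte scaling (adjusted p = 0.23). Tfe3, another relative, was higher in CD11b+ than in CD103+ cells of inflamed kidneys, at 31.5 ± 1.501 against 16.5 ± 1.04 CPM (0.93 ± 0.17, adjusted p = 0.00151).

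Tfeb and its relatives bind the E-box CACGTG, most strongly in the form TCACGTGA, so the promoters of the 33 genes were searched for these letters. RefSeq promoters of GRCm38.p6, from 250 bases before to 50 bases after the start, were matched for 26 of the 33 genes. CACGTG, which reads the same on both strands, was found in 10 of the 26 (38.5%) and in 2187 of 27025 genes with a promoter (8.09%). TCACGTGA, which contains CACGTG, was found in 5 of the 26 (19.2%) and in 304 of all (1.12%). The full consensus that was searched, with G before and C after these 8 letters, was found in 0 of the 26 and in 0.370% of all. A match describes the letters of the genome, says nothing about these cells and is no evidence of binding. The 33 genes were chosen as lysosomal genes, the kind that Tfeb is known to drive, so the higher shares are no independent finding. The promoters with more than 1 copy are printed whole, with each copy in capitals: Lamp1 holds 4, Mcoln1 2 and Atp6v0b 2.

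Lamp1 (chr8:13158911-13159210, plus strand): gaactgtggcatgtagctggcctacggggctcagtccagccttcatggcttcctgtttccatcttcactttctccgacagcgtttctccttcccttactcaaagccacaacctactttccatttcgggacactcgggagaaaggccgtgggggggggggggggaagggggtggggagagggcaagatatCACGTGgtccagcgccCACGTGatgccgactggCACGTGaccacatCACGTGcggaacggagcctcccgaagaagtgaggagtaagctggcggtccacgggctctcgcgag

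Mcoln1 (chr8:3500269-3500568, plus strand): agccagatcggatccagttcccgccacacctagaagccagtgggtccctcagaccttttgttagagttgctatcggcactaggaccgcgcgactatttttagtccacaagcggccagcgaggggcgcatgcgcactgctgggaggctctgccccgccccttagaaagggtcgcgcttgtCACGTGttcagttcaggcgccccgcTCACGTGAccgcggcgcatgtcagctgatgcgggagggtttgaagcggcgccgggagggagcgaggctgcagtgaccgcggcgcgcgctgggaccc

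Atp6v0b (chr4:117887280-117887579, minus strand): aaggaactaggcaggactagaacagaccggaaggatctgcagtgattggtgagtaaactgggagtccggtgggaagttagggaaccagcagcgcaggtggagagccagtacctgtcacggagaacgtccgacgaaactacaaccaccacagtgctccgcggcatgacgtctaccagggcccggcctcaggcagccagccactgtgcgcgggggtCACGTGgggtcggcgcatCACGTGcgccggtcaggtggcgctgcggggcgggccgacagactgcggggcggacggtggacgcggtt

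The other 7 genes held 1 copy each, printed within 42 bases and with TCACGTGA in capitals where it is complete.

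Atp6v0d1 (chr8:105566044-105566085, minus strand): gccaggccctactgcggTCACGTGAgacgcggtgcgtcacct

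Atp6v0e (chr17:26676381-26676422, plus strand): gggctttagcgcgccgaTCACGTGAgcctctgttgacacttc

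Atp6v1a (chr16:44139367-44139408, minus strand): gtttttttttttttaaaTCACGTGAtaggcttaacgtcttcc

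Gaa (chr11:119267805-119267846, plus strand): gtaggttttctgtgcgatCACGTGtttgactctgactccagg

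Glb1 (chr9:114401012-114401053, plus strand): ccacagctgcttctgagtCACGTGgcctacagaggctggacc

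Ifi30 (chr8:70766836-70766877, minus strand): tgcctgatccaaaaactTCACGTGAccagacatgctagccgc

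Lgmn (chr12:102439118-102439159, minus strand): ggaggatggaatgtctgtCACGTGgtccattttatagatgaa

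The motif lay close to the start in most of them, 3 bases from it in Atp6v0d1 and Atp6v0e, 48 and 49 bases in Glb1 and Lgmn, and 196 bases in Ifi30. Lgmn has 2 promoters in the RefSeq table, and the other, upstream of the one printed, held 0 copies. Of the 10 genes with CACGTG, 4 were called higher and 0 lower in inflamed CD11b+ against inflamed CD103+ cells (Lamp1, Lgmn, Atp6v0b and Ifi30), with a median difference of 0.44, beside 9.66% of all tested genes called higher and 8.21% lower. Of the 16 genes whose promoter lacked it, 6 were called higher and 1 lower, with a median of 0.33. The level of Tfeb itself did not pass the threshold in that comparison (0.35 ± 0.32, adjusted p = 0.521).

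In CD103+ cells nephritis went with lower RNA of 20 of the 33 genes and higher RNA of 8 under the deposited scaling, where 27.8% of all tested genes were called lower and 34.6% higher. The median difference was -0.58 for the 33 genes and 0.16 for all. In the same comparison 14 of the 15 proximal tubule genes and 6 of the 8 tested intercalated cell genes were called lower, and their part in these results was not tested. Leukocyte scaling moved the median of all genes from 0.16 to -1.38. Under it 26 of the 33 genes were called lower and 0 higher, with a median of -2.11, while 70.2% of all genes were called lower and 2.99% higher. The 8 rises thus depended on the scaling: Psap, Man2b1, Ifi30, Hexa, Asah1, Atp6v0a2, Scarb2 and Atp6ap2 rose under the deposited scaling, and under leukocyte scaling 2 of them stayed above 0 (Psap, 0.25, and Man2b1, 0.05) and the others lay at or below it. With the tubule level as a covariate, 0 of the 33 were called in either direction, beside 0.0141% of all genes called higher and 0% lower. The mean log2 level of the tubule genes was 9.47 to 10.06 in healthy and 6.14 to 6.58 in inflamed CD103+ libraries. Group and tubule level can therefore hardly be told apart in this comparison. The sign of an estimate with that covariate does not show whether a fall is independent of tubule RNA.

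**Figure D5:**
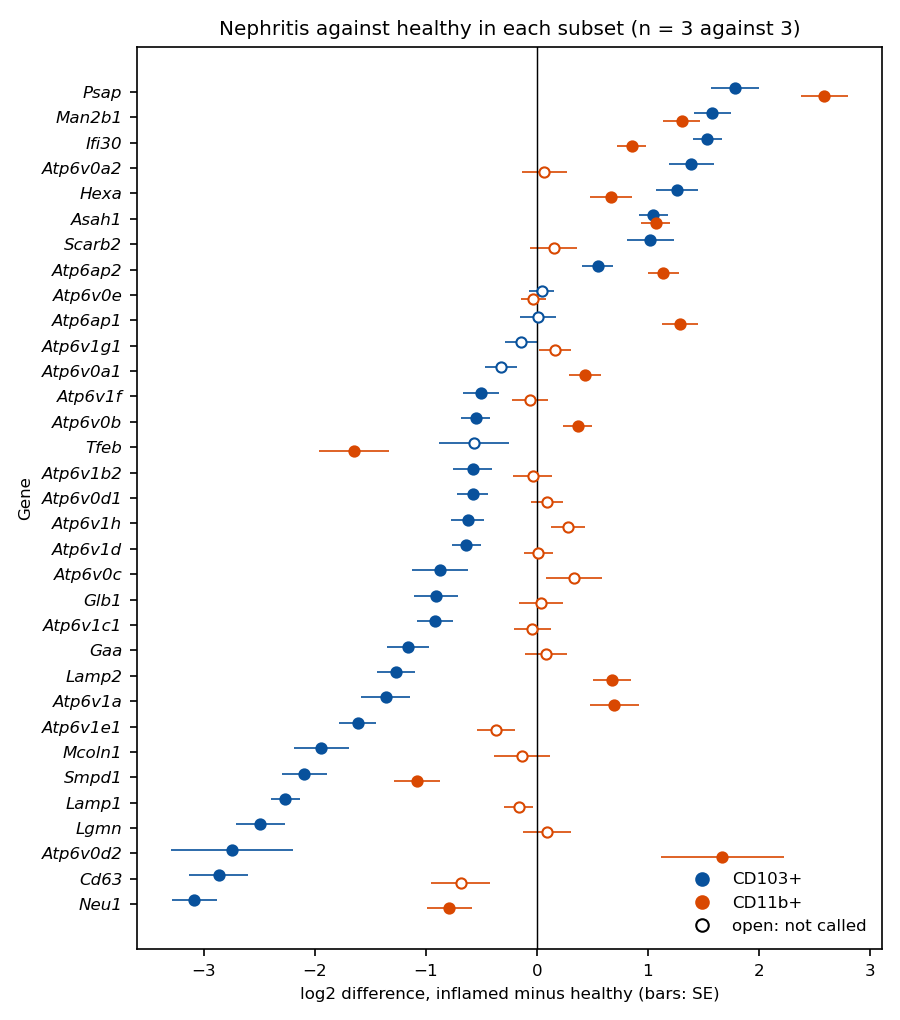
Difference between inflamed and healthy libraries (log2, x axis; bars, SE; n = 3 against 3) for each of the 33 genes in CD103+ (blue) and CD11b+ (orange) cells under the deposited scaling, sorted by the CD103+ value. Filled points have adjusted p under 0.05; in CD103+ cells 20 genes are lower and 8 higher, in CD11b+ cells 3 lower and 12 higher.

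Neu1, Lgmn, Lamp1, Smpd1 and Mcoln1 were among the genes that fell under the deposited scaling. With the tubule level as a covariate they stood at -0.88, -0.61, -1.26, -0.55 and -3.02, and none of them was called. Neu1 (chr17:34931253-34935953, plus strand) stood at 179, 138 and 118 CPM in healthy and 17.0, 18.3 and 15.3 CPM in inflamed CD103+ libraries. No library overlapped, and the fall was 8.48-fold (-3.08 ± 0.20, adjusted p = 1.02e-07). Lgmn went from 614, 629 and 431 CPM to 87.8, 88.2 and 121 CPM, a 5.62-fold fall (-2.49 ± 0.22, adjusted p = 6.80e-07). Lamp1 went from 181, 187 and 162 CPM to 36.1, 40.3 and 33.7 CPM, a 4.81-fold fall (-2.27 ± 0.13, adjusted p = 6.94e-08). Grtp1, whose exons overlap those of Lamp1, went from 31.1 to 2.54 CPM on average, and its share in the Lamp1 value was not tested. Smpd1 (-2.10 ± 0.20) and Mcoln1, the gene of a calcium channel of the lysosomal membrane (13.7, 8.96 and 12.4 CPM against 3.18, 2.91 and 2.84 CPM, -1.94 ± 0.25), fell as well. Smpd1 thus fell in both subsets under the deposited scaling.

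Under the deposited scaling Cd63 and Atp6v0d2 fell most after Neu1, and with the tubule level as a covariate both turned to values above 0 (0.12 and 1.65), neither of them called. Cd63 went from 453, 565 and 305 CPM to 51.5, 60.8 and 64.2 CPM (-2.87 ± 0.26, adjusted p = 1.03e-06), and 36.5% of the 50-base words of its transcript are shared with the pseudogene Cd63-ps, so its level is uncertain. Atp6v0d2 (chr4:19876841-19922605, minus strand) went from 79.8, 88.3 and 27.3 CPM to 11.1, 7.75 and 7.38 CPM (-2.75 ± 0.55, adjusted p = 0.000904). Healthy CD103+ replicate 3 was the lowest of its group. The sum of the intercalated cell genes in the same libraries ranged from 245 to 679 CPM against 40.4 to 69.7 CPM in inflamed CD103+ libraries. That sum includes the V-ATPase genes Atp6v0a4, Atp6v1g3 and Atp6v1b1, with means of 166, 150 and 56.8 CPM in healthy CD103+ cells. Their means in inflamed CD103+ cells were 16.2, 15.6 and 7.32 CPM. The sum is thus no measure of cell content apart from V-ATPase genes. The log2 ratio of Atp6v0d2 to the common d subunit gene Atp6v0d1 was -0.82 to 0.83 in healthy and -2.24 to -1.46 in inflamed CD103+ libraries (exact permutation p = 0.1, the smallest possible).

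Of the V1 genes 7 of 8 were called lower in inflamed CD103+ cells, led by Atp6v1e1 (283 ± 66.6 to 90.7 ± 2.12 CPM, -1.61 ± 0.17) and Atp6v1a (444 ± 152 to 166 ± 17.3 CPM, -1.36 ± 0.22), with Atp6v1g1 not called, beside 27.8% of all genes called lower. With the tubule level as a covariate none was called, and Atp6v1a (0.69), Atp6v1b2 (1.01), Atp6v1c1 (0.36), Atp6v1f (0.45) and Atp6v1h (0.51) turned to values above 0. Atp6v1a stood at 133 ± 30.4, 166 ± 17.3 and 212 ± 8.58 CPM in healthy CD11b+, inflamed CD103+ and inflamed CD11b+ cells. The V1 genes Atp6v1g1 and Atp6v1f share 19.2% and 12.5% of their 50-base words with other genes.

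Between the healthy subsets 21 of the 33 genes were called lower in CD11b+ than in CD103+ cells and 4 higher, with 24.5% of all genes called lower and 25.4% higher. The median difference was -0.74 for the 33 genes and 0.02 for all. All 8 V1 genes were among the lower ones, as were 14 of the 15 proximal tubule genes and 8 of the 8 tested intercalated cell genes, whose part was not tested. Leukocyte scaling, which moved the median of all genes to -1.26, called 29 lower and 0 higher, beside 69.3% and 4.99% of all genes, and with the tubule level as a covariate 0 were called, beside 0.374% of all genes called lower and 1.38% higher, while Atp6v1b2 (0.14), Atp6v1e1 (0.02) and Atp6v1f (0.02) turned to values above 0. Atp6v0d2 (-3.18 ± 0.55), Cd63 (-1.87 ± 0.26), Atp6v1a (-1.71 ± 0.22), Psap (-1.69 ± 0.21), Neu1 (-1.32 ± 0.20) and Mcoln1 (-1.15 ± 0.25) were lower in CD11b+ cells. Psap stood at 1384, 1789.5 and 1241 CPM in healthy CD103+ libraries. Under the deposited scaling it was higher in CD103+ cells in both states, by 3.23-fold in healthy and 1.85-fold in inflamed kidneys. The healthy call was lost with the tubule level as a covariate, and the inflamed call without the highest inflamed CD103+ library.

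The 4 genes higher in healthy CD11b+ cells were Ifi30, Tfeb, Atp6v0a1 and Hexa. Ifi30 stood at 39.99, 39.5 and 50.6 CPM in CD103+ and 119, 123 and 112 CPM in CD11b+ libraries (1.45 ± 0.13, adjusted p = 2.30e-06). Tfeb was 2.71-fold higher (1.44 ± 0.32, adjusted p = 0.00208). Under leukocyte scaling neither was called (0.17 and 0.15), and Atp6v0a1 (-0.34) and Hexa (-0.39) changed sign. The ratio of Atp6v0a1 to Atp6v0a2, which no scaling changes, was higher in healthy CD11b+ than in healthy CD103+ libraries by 1.80 on the log2 scale. The means were 1.15 and -0.64, without overlap (exact permutation p = 0.1, the smallest possible). Proximal tubule genes took 0.891% to 2.20% in the former and 3.73% to 5.81% in the latter libraries. The part of tubule RNA in this ratio was not tested.

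The response to nephritis itself differed between the subsets for 24 of the 33 genes: it was higher in CD11b+ than in CD103+ cells for 21 and lower for 3, while 17.7% of all genes were called in each direction. The largest differences were those of Atp6v0d2 (4.42 ± 0.78), Lgmn (2.58 ± 0.31), Neu1 (2.30 ± 0.29), Cd63 (2.18 ± 0.37), Lamp1 (2.10 ± 0.18), Atp6v1a (2.06 ± 0.31), Lamp2 (1.95 ± 0.24) and Mcoln1 (1.81 ± 0.35). The lower ones were Atp6v0a2 (-1.32 ± 0.29), Scarb2 (-0.87 ± 0.30) and Ifi30 (-0.68 ± 0.19). The median was 0.88 for the 33 genes and -0.07 for all. Leukocyte scaling moved the latter to 1.12, with 28 of the 33 genes and 46.9% of all genes called higher and 0 of the 33 and 1.5% of all called lower, and Scarb2 (0.32) and Ifi30 (0.51) changed sign. With the tubule level as a covariate 0 of the 33 and 0 of all genes were called, and the healthy CD103+ libraries enter every one of these differences.

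Other genes of the pathway, listed with earlier results of these data known, gave the following counts. Of 7 tested V-ATPase genes outside the set (9 listed), 5 fell and 1 rose in CD103+ cells with nephritis (6 and 0 under leukocyte scaling), beside 27.8% of all genes called lower and 34.6% higher (70.2% and 2.99% under leukocyte scaling), and 0 were called between the inflamed subsets. The falls included the kidney forms Atp6v0a4 (166 ± 57.9 to 16.2 ± 2.69 CPM) and Atp6v1g3 (150.1 ± 72.3 to 15.6 ± 5.29 CPM), which intercalated cells use. Both genes are also part of the intercalated cell sums given above, so these falls are not a separate observation. Of 28 further hydrolases and cofactors, 11 rose and 1 fell in CD11b+ cells with nephritis (5 and 2 under leukocyte scaling), beside 20.1% and 15.8% of all genes (5.91% and 19.1%). Among those with the smallest adjusted p were Pla2g15, a lysosomal phospholipase (3.37 ± 0.35), and Gla, alpha-galactosidase (2.21 ± 0.28), both higher in nephritis. Between the inflamed subsets 6 of the 28 were higher and 5 lower in CD11b+ cells (5 and 6 under leukocyte scaling), and Ppt1, a palmitoyl thioesterase (-3.56 ± 0.19), and Naaa, an acid amidase (-3.68 ± 0.22), were among the lower ones.

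Of 23 further lysosomal membrane proteins and transporters, 7 were higher and 1 lower in inflamed CD11b+ than in inflamed CD103+ cells (3 and 1 under leukocyte scaling). Slc11a1, the metal transporter of phagosomes, was higher (2.76 ± 0.29), as were Hgsnat (1.39 ± 0.25) and the cystine carrier Ctns (1.04 ± 0.18, adjusted p = 0.0662 under leukocyte scaling), and Laptm4b was lower (-1.47 ± 0.24). Of 14 genes of lysosomal transcription factors and of mTORC1 at the lysosome, 4 were higher and 0 lower in the same comparison, among them Mitf (2.01 ± 0.39) and Tfe3. Of 7 sorting genes 2 were higher and 2 lower: Sort1 (0.91 ± 0.24) and Gnptab (0.63 ± 0.19) were higher, and Igf2r, the large mannose 6-phosphate receptor (-1.90 ± 0.19), and M6pr, the small one (-0.44 ± 0.13), were lower, of which Igf2r kept its call under leukocyte scaling. The shares called among all genes in that comparison were 9.66% higher and 8.21% lower.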

How the data were processed

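RNA of 12 libraries (4 groups of 3) was measured. The deposited log2 values formed 1 table of 26281 lines made by the authors; 160 repeated lines were dropped, which left 26121 genes. Per the labels' protocols, cDNA was prepared by the SMARTer Ultra Low method and read from one end over 50 bases. STAR 2.0.4b, Subread, featureCounts 1.4.5 and edgeR are named, without their roles, per the submitters' processing notes, and the genome build and strand setting are not given in the sources used here. The antilog of a deposited log2 value, times a library-specific size, less 0.5 reads, gave whole reads within 0.05 for 100% of genes, so they were taken as log2 CPM per scaled library size (factors 0.921 to 1.08), and CPM in the text are those reads per scaled size. CPM per kb uses the union of exons in the GENCODE M21 annotation of GRCm38, which held 26022 of the gene IDs and supplied the coordinates.

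Genes with at least 1 CPM in at least 3 libraries (14180, leaving out 11941) entered a limma fit (version 3.58.1, R 4.3.3) of 1 mean per group, trended and robust. P-values are two-sided and Benjamini-Hochberg adjusted over all tested genes and a threshold of 0.05; differences are on the deposited log2 scale. Read sharing was measured as the 50-base words of the longest coding transcript found in other genes. Other steps used Python 3.11.15 with pandas 2.3.3, numpy 2.4.6 and, for the plots, matplotlib 3.10.9. The script was tested on simulated data.

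The 33 genes and all gene lists were chosen with earlier results of these data known. Full statistics were planned for up to 8 genes per comparison with the largest difference among those called. These had to be without overlap of libraries (not required for the difference of responses) and have at least 10 CPM in the higher group. Of each further list, up to 4 with the smallest adjusted p were taken. Some genes outside this rule are given with full statistics too, among them Psap and Ifi30 between inflamed subsets and Ifi30, Neu1, Atp6v1a and Hexa in CD11b+ nephritis. Alternatives were other pseudocounts (0.25 and 4 CPM), a filter at 5 CPM or none, scaling to 34 of 36 listed leukocyte genes, median-centring, the tubule level as a covariate, a fit of only the groups compared, array weights, a replicate block, and leaving out each library. Each mouse gave both subsets, yet no label ties a library number to a mouse, and the correlation of same-numbered libraries' deviations was -0.01, 0.00 and -0.15 in healthy and 0.07, 0.05 and 0.15 in inflamed mice. The depth behind a value is in the recovered reads, and limits from them cover counting error only. Proteins were not compared here. Some results are not reported here.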

Additional observations from a re-analysis of the deposited data

Results flagged for a closer look

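The response to nephritis differed between CD11b+ and CD103+ cells by an interaction test (limma, adjusted p under 0.05) for 24 of the 33 genes, beside 17.7% of all genes in each direction, given here as the CD11b+ response minus the CD103+ response on the log2 scale. In the V0 sector it was 0.76 for Atp6v0a1, -1.32 for Atp6v0a2, 0.92 for Atp6v0b, 1.21 for Atp6v0c, 0.67 for Atp6v0d1 and 4.42 for Atp6v0d2. In the V1 sector it was 2.06 for Atp6v1a, 0.88 for Atp6v1c1, 0.65 for Atp6v1d, 1.25 for Atp6v1e1 and 0.91 for Atp6v1h, and among accessory subunits 1.28 for Atp6ap1 and 0.59 for Atp6ap2. Membrane proteins stood at 2.10 for Lamp1, 1.95 for Lamp2, 2.18 for Cd63 and -0.87 for Scarb2. Hydrolases stood at 1.25 for Gaa, 0.94 for Glb1, 2.30 for Neu1 and 1.02 for Smpd1. Lgmn stood at 2.58, Mcoln1 at 1.81 and Ifi30 at -0.68. The healthy CD103+ libraries, which hold the most tubule RNA, enter each of these values. With the proximal tubule level as a covariate 0 of the 24 passed the threshold, nor did any other gene, and under leukocyte scaling Scarb2 (0.32) and Ifi30 (0.51) changed sign.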

How the results depend on the processing

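Of the 165 results (33 genes in 5 comparisons) 138 kept their side of the threshold in all 12 fits that each left out 1 library, and no result called with or without a library changed sign there; results called in neither did so at values from -0.19 to 0.12. The count of genes higher and lower then ranged over 8 to 8 and 19 to 21 in CD103+ nephritis, 7 to 12 and 3 to 5 in CD11b+ nephritis, 4 to 5 and 18 to 22 between healthy subsets, 8 to 11 and 1 to 2 between inflamed subsets, and 19 to 22 and 2 to 4 for the difference of responses. Changing the pseudocount or filter or median-centring the libraries changed the sign of none that was called.

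Leukocyte scaling changed the counts of higher genes to 0 (CD103+ nephritis), 4 (CD11b+ nephritis), 0 (healthy subsets) and 4 (inflamed subsets), and that of lower responses to 0. Under it the sign turned in CD103+ nephritis for Atp6v0a2 (-0.14), Atp6v0e (-1.49), Atp6ap1 (-1.52), Atp6ap2 (-0.99), Scarb2 (-0.51), Hexa (-0.27), Asah1 (-0.48) and Ifi30 (-0.00012). Between healthy subsets it turned for Atp6v0a1 (-0.34), Scarb2 (-0.87), Hexa (-0.39) and Asah1 (-1.19). In the difference of responses it turned for Atp6v0e (1.11), Scarb2 (0.32), Man2b1 (0.91) and Ifi30 (0.51). In CD11b+ nephritis 10 genes called under neither scaling turned to values from -0.33 to -0.01, and Hexa and Tfeb, also called under neither, turned in the difference of responses.

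With the tubule level as a covariate the counts of higher and lower genes were 0 and 0 in CD103+ nephritis, between healthy subsets and for the difference of responses, and 0 genes were lower in CD11b+ nephritis. The sign turned in CD103+ nephritis for Atp6v0b (0.20), Atp6v0c (0.30), Atp6v0d2 (1.65), Atp6v1a (0.69), Atp6v1b2 (1.01), Atp6v1c1 (0.36), Atp6v1f (0.45), Atp6v1h (0.51), Cd63 (0.12) and Glb1 (0.67), in CD11b+ nephritis for Neu1 (0.0486), between healthy subsets for Atp6v1b2 (0.14), Atp6v1e1 (0.0202) and Atp6v1f (0.0165), and in the difference of responses for Glb1 (-0.0361). Results called in neither fit turned as well: 3 in CD103+ nephritis, 6 in CD11b+ nephritis, 4 and 2 between healthy and inflamed subsets, and 5 in the difference of responses. Array weights gave 5 lower genes in CD11b+ nephritis and 6 between inflamed subsets, and only the groups compared gave 4 there. The cause was not tested for these changes.

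With the replicate block 94 of 99 results kept their direction and side of the threshold, and 8 genes instead of 10 were higher between inflamed subsets; the numbers do not pair the samples by the labels, and their libraries did not deviate together. Depth limits Tfeb and Mcoln1 most, at a few CPM.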
